A study of Caenorhabditis elegans with 4 samples.

Results

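HLH-1::GFP peaks that follow each other closely along the worm genome are described here, as runs of 5 or more. They were chosen from the positions in the deposited peak list: midpoints were sorted along each chromosome, and successive peaks with midpoints at most 2000 bp apart were joined into a run. The rule kept 963 of 13091 peaks, 7.36% of the list, in 162 runs. The other 12128 peaks lay in shorter runs, and 6462 of them had no peak within that distance.

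The data come from ChIP-seq of Caenorhabditis elegans embryos, with 2 ChIP samples and 2 samples of input DNA, numbered as replicates 1 and 2. All samples were hermaphrodite strain OP64, with the allele unc-119(ed3) III and the transgene wgIs64, which carries unc-119(+) and hlh-1 fused to TY1, EGFP and 3xFLAG, and were grown at 20 °C. The transgene was introduced by biolistic transformation, and its EGFP tag was precipitated with an affinity-purified goat antibody against GFP. ChIP and input shared the strain and the stage, and the list holds both replicates combined, so no value of a single replicate and no replicate error can be given. The transgene adds hlh-1 and unc-119 DNA to the genome, and whether a run lies at either locus was not analysed here. Chromatin came from whole embryos, so a peak averages over all their cells. Positions refer to the WormBase WS180 build, and read depth is unknown.

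HLH-1 is the MyoD of the worm, a basic helix-loop-helix protein that acts in the development of body wall muscle. Factors of this family bind E-boxes, short sites of the form CANNTG, as dimers. Sites for such factors often lie several to a regulatory region, and one gene can have several such regions before it, in its introns and after it. No genome sequence or gene positions of WS180 were used here, so the runs are described by position, width, spacing and strength and not by gene or motif.

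Runs grew rarer with each added peak. There were 85 runs of 5 peaks, 40 of 6, 20 of 7, 9 of 8 and 5 of 9, and then 1 each of 11, 13 and 17. Runs of 5 or 6 therefore made up 125 of the 162. Just below the limit of the rule were 213 runs of 4 peaks, and the list also held 548 runs of 3 and 1585 runs of 2. The runs of 5 or more spanned 971 kb from first to last base, 0.970% of the 100.2 Mb between base 1 and the last peak of each chromosome. Their peaks held 9.66% of all bases in peaks.

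**Figure D1:**
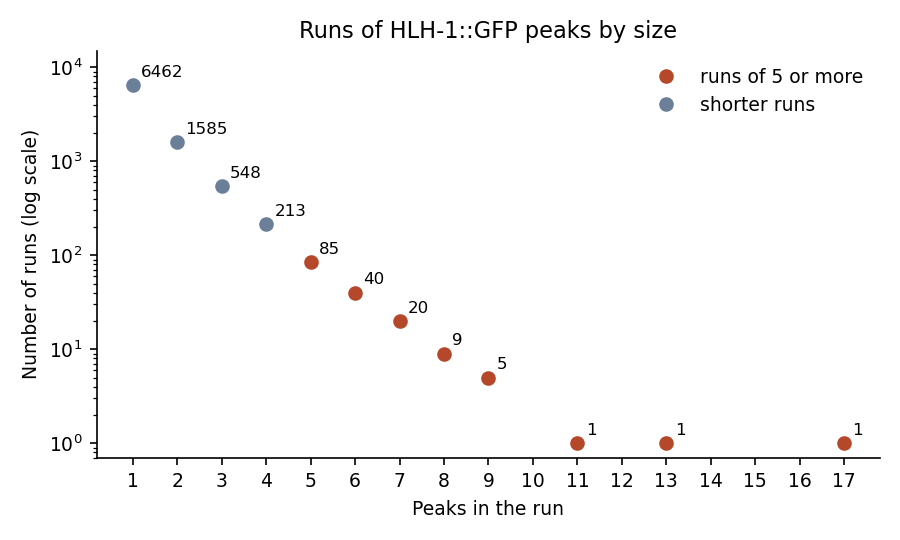
Number of runs (log scale) against the number of peaks in the run, with runs of 5 or more in red, shorter runs in blue and the number of runs beside each point. Counts go down at each size up to 9 peaks, where 5 runs are left, and the runs of 11, 13 and 17 peaks stand beyond a size with no run.

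Peaks in runs were wider and more often strong than the other peaks. The median width was 314 bp in runs of 5 or more (95% order-statistic interval 291 to 336 bp) and 236 bp in shorter runs (231 to 240 bp). The middle 50% of widths ran from 180 to 516.5 bp in runs of 5 or more and from 143 to 370.0 bp in shorter runs. Strong peaks, meaning those with a q-value of 1e-10 or less, numbered 258 of 963 in runs of 5 or more, or 26.8% (exact binomial interval 24.02% to 29.7%). In shorter runs they numbered 2254 of 12128, or 18.6% (17.9% to 19.3%), and in the whole list 19.2%. The median q was 4.20e-05 in runs of 5 or more and 0.000266 in shorter runs. The intervals cover the number of peaks only, treat peaks as independent although they enter a run together, and do not cover replicate error. Width and q come from the same list of positions that defined the runs, so no test of these differences is given.

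At the limit of the rule itself there was no step. Peaks in runs of 5 had a median width of 284 bp and 23.3% were strong, and peaks in runs of 4 had a median width of 288.5 bp and 24.2% were strong. Beyond that, values moved up with size. Peaks in runs of 6 had a median of 306.5 bp with 27.1% strong, those in runs of 7 to 9 a median of 336 bp with 30.4% strong, and the 41 peaks in the 3 runs of 10 or more a median of 425 bp with 39.0% strong (24.2% to 55.5%). Peaks alone stood at the other end, with a median of 215 bp and 15.8% strong. The intervals of the neighbouring classes from 3 peaks upwards overlap, so the order among them is not settled by these counts.

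**Figure D2:**
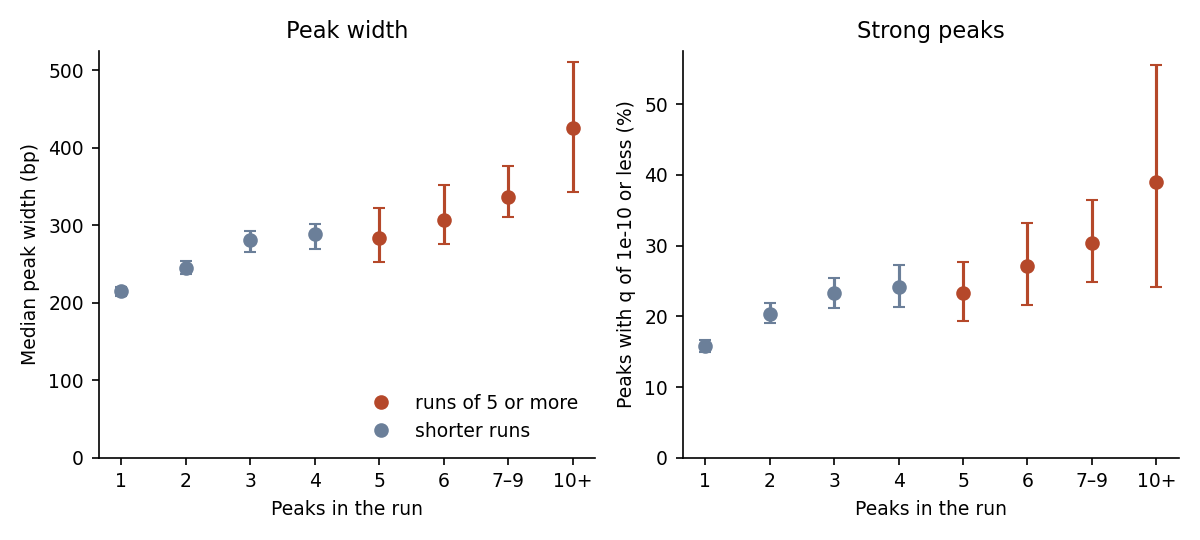
Left, median peak width in bp, and right, percentage of peaks with a q of 1e-10 or less, against the number of peaks in the run; bars are 95% intervals (order-statistic for width, exact binomial for the percentage) and red marks runs of 5 or more. Both panels are lowest for peaks alone (215 bp and 15.8%), level between runs of 3, 4 and 5, and highest in runs of 10 or more (425 bp and 39.0%), where the bars are widest.

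The stronger q-values went with the larger widths. Over the 963 peaks in runs, width and −log10 q had a Spearman's rho of 0.74. Whether either depends on the other was not tested. Among peaks of like width, the strong shares of both sets were close. From 300 bp to under 500 bp, 35.4% of 246 peaks in runs of 5 or more were strong (29.4% to 41.7%), against 37.4% of 2805 in shorter runs (35.6% to 39.2%). From 500 bp to under 1 kb the shares were 58.3% of 211 peaks in runs of 5 or more and 57.6% of 1395 in shorter runs. From 1 kb upwards they were 84.4% of 45 and 86.7% of 203. Runs of 5 or more held more of the wide classes: 21.9% of their peaks were from 500 bp to under 1 kb wide, against 11.5% in shorter runs, and 4.67% were 1 kb or wider, against 1.67%. Peaks narrower than 50 bp made up 6.54% of peaks in runs of 5 or more and 9.71% in shorter runs.

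The share of peaks that lay in runs of 5 or more, 7.36% over all peaks, was larger among stronger peaks. Such runs held 34 of the 180 peaks whose q did not exceed 1e-50, which is 18.9% (interval 13.5% to 25.4%), and 291 of the 5047 peaks with a q above 0.001, 5.77% (5.14% to 6.44%). Between these, the shares were 9.61% for q above 1e-50 and up to 1e-10, 8.04% from there to 1e-05 and 7.12% from there to 0.001. Of the 100 strongest peaks, 24 lay in runs of 5 or more (interval 16.0% to 33.6%), and of the 10 strongest, 2 did (2.52% to 55.6%). Of the 248 peaks of 1 kb or wider, 45 lay in such runs, 18.1% (13.6% to 23.5%). Runs of 5 and runs of 4 were alike in this. A q of at most 1e-50 was found in 2.35% of peaks in either, and a width of 1 kb or more in 2.82% and 2.93%.

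Strong and weak peaks were mixed within runs. Of the 162 runs, 125 held at least 1 strong peak (77.2%, interval 69.9% to 83.4%), against 1010 of 2346 runs of 2 to 4 (43.1%, 41.0% to 45.1%); a run with more peaks has more chances to hold one. A single strong peak was found in 48 runs, 2 in 42 runs, 3 in 21 runs, 4 in 11 runs, 5 in 2 runs and 9 in 1 run, while 37 runs had none. Among runs of 2 to 4, 86 of 2346 were made of strong peaks alone, which is less likely the more peaks a run has. None of the 162 runs was made of strong peaks alone. Of the 801 pairs of neighbouring peaks within these runs, 60 were both strong (7.49%), 297 were a strong peak beside a weaker one (37.1%) and 444 held no strong peak (55.4%). In the 3320 neighbouring pairs of runs of 2 to 4, the shares were 5.21%, 33.1% and 61.7%. The strength of a peak was nearly unrelated to that of the next, with a Spearman's rho of 0.05 between their −log10 q over the pairs in runs of 5 or more and 0.06 over those in runs of 2 to 4 (pairs share peaks, and no p is given).

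No place within the run was set apart for the strongest peak by these counts. It was the first or last of the run in 63 of 162 runs, 38.9% (interval 31.3% to 46.9%). Such end peaks made up 33.6% of all peaks in runs. That share counts peaks and not runs, so longer runs weigh more in it and it is not a like baseline. End peaks were strong in 30.6% of 324 cases and inner peaks in 24.9% of 639, with overlapping intervals (25.6% to 35.9% and 21.6% to 28.4%). Their median widths were 331.5 bp and 309 bp. The strongest peak was also the widest in 90 of 162 runs. The widest peak held a median of 34.3% of a run's covered bases, from 11.5% to 83.7% in single runs.

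Runs of 5 or more were long, with a covered share close to that of runs of 2 to 4. Peaks alone cover their whole span and were left out here. Span ends at the outer peaks, so runs of few peaks have fewer gaps per peak. The median run spanned 5689.5 bp (interval 5407 to 5923 bp), the middle 50% of runs from 4699.5 to 6839.5 bp, the shortest 2628 bp and the longest 15551 bp. Peaks covered 38.6% of the total span of runs of 5 or more and 38.9% of that of runs of 2 to 4, which was 40.7% in runs of 2, 37.4% in runs of 3 and 36.3% in runs of 4. The covered share varied widely between runs of 5 or more, from 12.2% to 76.4%, with a median of 36.97% (34.2% to 40.3%). In 36 runs it was above 50%, and in 12 runs it was below 20%. Pooled over the runs of each size, it was 36.6% at 5 peaks, 37.6% at 6, 40.8% at 7, 41.0% at 8 (9 runs) and 46.0% at 9 (5 runs). The single runs of 11, 13 and 17 peaks had 36.3%, 39.7% and 54.6%. Over the 162 runs, covered share and number of peaks had a Spearman's rho of only 0.15.

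Spacing in runs of 5 or more was close to that in runs of 2 to 4. The median distance from midpoint to midpoint was 1091 bp over 801 steps in runs of 5 or more (interval 1055 to 1134 bp). It was 1123 bp over 3320 steps in runs of 2 to 4 (1100 to 1155 bp). This distance is the value that the rule used, and it cut both sets at 2000 bp. Similar medians are therefore partly built in, and the overlap of the intervals, which treat steps as independent, decides nothing. Steps under 1000 bp made up 41.2% of steps in runs of 5 or more and 41.1% in runs of 2 to 4. Steps from 1500 to 2000 bp made up 22.7% and 26.4%. The uncovered gap between the end of a peak and the start of the next was shorter in runs of 5 or more. Its median was 659 bp (603 to 696 bp) against 793 bp (765 to 821 bp). How far wider peaks or closer midpoints account for this was not tested. No gap in the list was under 200 bp. Gaps under 300 bp made up 17.6% of gaps in runs of 5 or more, 11.0% in runs of 2 to 4 and 13.0% in runs of 4 alone. Whether such close calls are parts of 1 wider bound region was not tested.

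**Figure D3:**
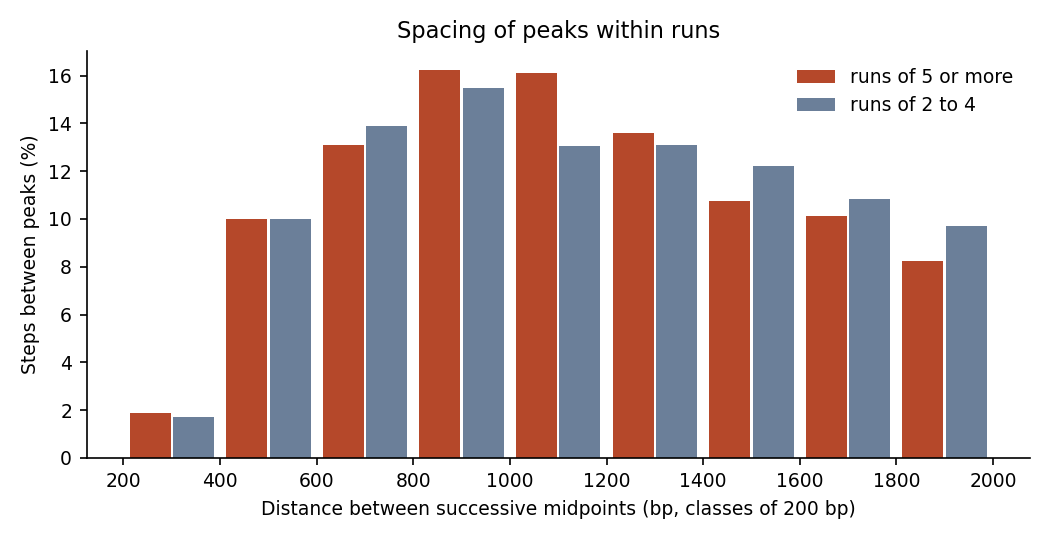
Percentage of steps between successive peaks by the distance between their midpoints, in classes of 200 bp, for runs of 5 or more (red, 801 steps) and runs of 2 to 4 (blue, 3320 steps). Both sets are most common between 800 and 1000 bp and grow rarer towards the joining limit of 2000 bp, beyond which the rule leaves no step.

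Some runs depend on the joining limit. Over all successive peaks of the list, 387 distances were above 1800 bp and up to 2000 bp, and 351 were above that and up to 2200 bp. Steps longer than 1900 bp occurred 28 times, in 27 of the 162 runs. Outside the runs, the nearest peak beyond an end was a median of 5278 bp away, at 11 of 324 ends it was at most 2100 bp away, and at 72 ends (22.2%) it was at most 3000 bp away. At 91 ends no further peak came within 10000 bp. Beyond their own ends, runs lay in surroundings much like those of other peaks: within 25 kb on both sides, a run of 5 or more had a median of 7 further peaks (interval 6 to 8, range 1 to 17), runs of 2, 3 and 4 also 7, and peaks alone 6.

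The run with the most peaks lay on chromosome II, at chrII:6820973-6836523. Its 17 peaks covered 54.6% of 15.6 kb, and 9 of them were strong. Widths ran from 128 bp to 979 bp, and midpoints were 484 to 1343 bp apart with a median of 890.5 bp. The strongest peak, the eighth, was 669 bp wide with a q of 1.17e-43, and the weakest had a q of 0.00846. Strong peaks stood at both ends of the run, with a q of 1.55e-16 for the first peak and 3.34e-22 for the last. Just beyond it followed a lone peak of 1014 bp with a q of 8.01e-41, its midpoint 2756 bp from that of the last peak, and 4 more peaks began 1785 bp after the end of that one. If gaps rather than midpoints had been joined at 2000 bp, these would form 1 run of 22 peaks. Before the first peak, none lay within 18294 bp.

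The other runs of 10 or more peaks were less evenly built. On chromosome I, chrI:14620924-14634480 held 13 peaks over 13.6 kb with 39.7% covered and 4 strong peaks. Its seventh peak, 1187 bp wide with a q of 1.89e-44, stood among 9 weaker ones, and 3 strong peaks of 502, 334 and 465 bp closed the run. On chromosome V, chrV:13389704-13403152 held 11 peaks over 13.4 kb with 36.3% covered and 3 strong peaks. The strong ones were 820 bp wide with a q of 6.03e-62, then next to it 747 bp with a q of 5.17e-36, and at the end of the run 650 bp with a q of 1.77e-21. These 3 runs were also the longest by span. On the other chromosomes the largest runs were smaller: 9 peaks at chrX:12167662-12176678 (54.7% covered, 2 strong), 8 at chrIII:1923393-1932523 (45.1% covered, 3 strong) and 8 at chrIV:558951-568742 (40.5% covered). The last held no strong peak. Its strongest, 1404 bp wide, had a q of 6.50e-08.

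The 3 runs with the highest covered shares each held a peak wider than 1 kb. At chrIII:11932947-11937386, 76.4% of 4.44 kb was covered, and a peak of 2838 bp at its right end held 83.7% of the covered bases. That peak ranked 6 in the whole list with a q of 1.18e-146, and the 4 peaks to its left were 35 to 184 bp wide and 225 to 292 bp from the next. At chrX:7214590-7220726, 71.5% of 6.14 kb was covered by 6 peaks, the widest of 1456 bp. At chrII:9258045-9265704, 68.1% of 7.66 kb was covered by 6 peaks, 4 of them strong. Among them was a peak of 2364 bp that ranked 9 in the list, with a q of 3.42e-133. The next 3 runs by their strongest peak were chrIII:8795478-8803532 (strongest q 1.95e-107), chrX:1103778-1111218 (4.49e-105) and chrI:433415-438430 (5.13e-103), each with 2 or 3 strong peaks.

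The 3 most thinly covered runs held no strong peak and no peak wider than 326 bp. At chrV:17935297-17940931, 5 peaks covered 12.2% of 5.64 kb, and none had a q below 0.000348. At chrV:19885716-19890003, 5 peaks covered 12.5% of 4.29 kb, and the strongest by q, 0.000104, was only 3 bp wide. At chrII:11599781-11604063, 5 peaks covered 13.9% of 4.28 kb, with a strongest q of 1.44e-09.

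**Figure D4:**
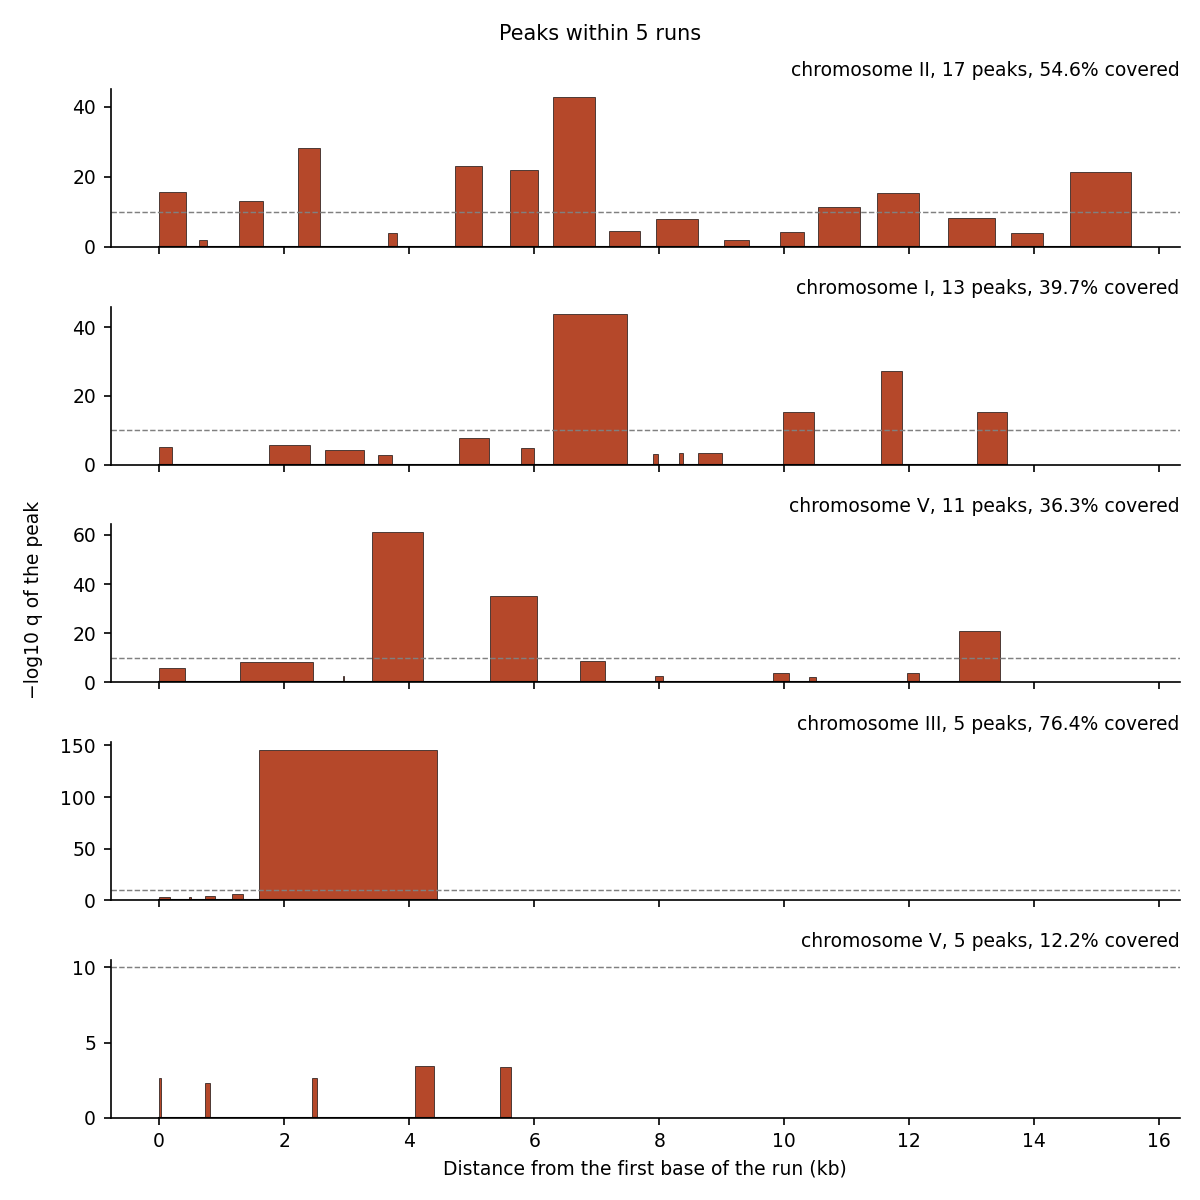
Peaks of 5 runs, namely the 3 of 10 or more and the runs with the highest and the lowest covered share, drawn to scale by distance from the first base of the run in kb; bar width is peak width, bar height is −log10 q (each panel has its own scale) and the dashed line marks a q of 1e-10. The run of 17 mixes strong and weak peaks along 15.6 kb, the run on chromosome III is filled by its peak of 2838 bp, and in the lowest panel no peak reaches the dashed line.

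Runs were unevenly shared between chromosomes, and not in the order of peak density. On chromosome V, 252 of 2508 peaks lay in runs of 5 or more, 10.05% (exact binomial interval 8.90% to 11.3%), although V had 119.9 peaks per Mb, fewer than any chromosome but IV. Chromosome I followed with 8.64% (7.53% to 9.87%), then III with 6.90% (5.80% to 8.14%) and X with 6.77% (5.81% to 7.84%). The lowest were II with 6.28% (5.25% to 7.45%) and IV with 4.65% (3.76% to 5.67%). The interval of I overlaps those of V, III and X. Those of III, X and II overlap each other, and that of II also overlaps that of IV. Each interval treats peaks as independent although the peaks of a run enter together, so it is too narrow. Chromosomes whose intervals do not overlap are therefore not shown to differ. In number, V held 43 runs, I 34, X 28, III 22, II 19 and IV 16. V held 26.2% of the peaks in runs of 5 or more and 18.6% of those in shorter runs. Of the run peaks on V, 17.5% were strong, the lowest share of the 6 chromosomes, and of its peaks in shorter runs 14.1%, also the lowest. The excess did not hold at a stricter limit: when peaks with a q above 0.001 were left out before joining, V held 11.02% of peaks in runs of 5 or more, against 17.4% of peaks in shorter runs (254 peaks in 44 runs were left).

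On X the shares were nearer to each other. It held 17.3% of the peaks in runs of 5 or more (15.001% to 19.9%) and 18.9% of those in shorter runs, with overlapping intervals, but with peaks above a q of 0.001 left out it held 25.6%, against 19.8%. Its run peaks were the most often strong of any chromosome, 37.7% of 167, followed by those of II with 33.3%, III with 30.5%, IV with 25.3%, I with 23.6% and V. Peaks in shorter runs were also most often strong on X (23.5%) and least often on V (14.1%). Peaks in runs of 5 or more had a larger median width than peaks in shorter runs on 6 of 6 chromosomes, and a larger strong share on 6 of 6. The widths were closest on III, with 281 bp against 225 bp, and on I, with 274 bp against 217 bp. They differed most on IV, with 382 bp against 264 bp, and on II, with 343 bp against 228 bp.

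Within chromosomes, runs gathered in different parts. Each chromosome was divided into 3 equal parts, a left arm, a centre and a right arm. On X the centre had 10.7% of its peaks in runs of 5 or more (8.65% to 12.9%), against 4.92% in the left arm (3.52% to 6.66%) and 4.59% in the right arm (3.27% to 6.25%), although peak density was nearly level there at 143.1, 134.3 and 140.05 peaks per Mb. On chromosome V the left arm had the largest share, 12.4%, and on chromosome I the right arm, 12.2%. The smallest share was in the left arm of II, where 10 of 538 peaks, 1.86% (0.895% to 3.39%), lay in 2 runs. Peaks of a run enter together, so these shares rest on far fewer runs than peaks, 15 in the centre of X and 7 and 6 in its arms.

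Over the autosomes together, the share in centres was close to that of the other peaks. Centres held 38.1% of autosomal peaks in runs of 5 or more (34.7% to 41.5%) and 36.98% of those in shorter runs (36.0% to 37.9%). In value, the share was above that of shorter runs in 7 of 7 alternative settings, which draw on the same peak list. In some the difference was small, 37.4% against 36.99% at 3000 bp and 38.3% against 36.9% when gaps were joined. It was larger with runs of 6 or more, 43.1% against 36.8% (77 runs). With a q of 0.001 or less it was 46.6% against 39.1% (44 runs). In runs of 5 or more, 41.0% of the span was covered in centres and 35.6% in arms. Strong peaks made up 30.4% of their peaks in centres and 20.9% in arms, and peaks in shorter runs went the same way, with 19.9% strong in centres and 15.96% in arms. Peaks in runs of 5 or more were wider than the others in 17 of the 18 chromosome parts, the exception being the right arm of V with 169 bp against 200 bp. Their strong share was larger in 17 of 18, the exception being the left arm of II with its 10 peaks.

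**Figure D5:**
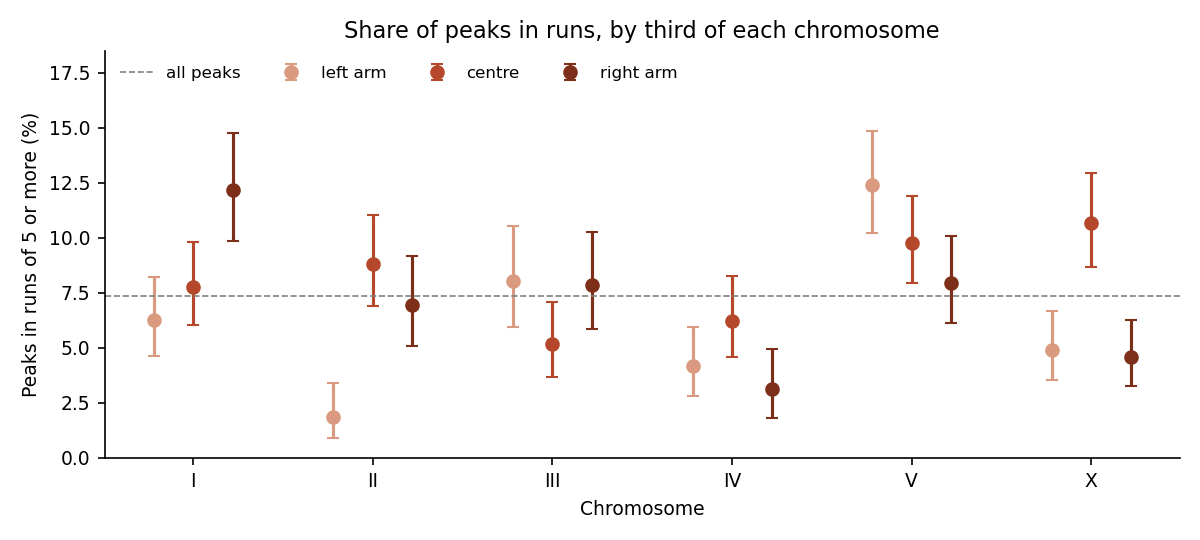
Percentage of peaks that lay in runs of 5 or more, by chromosome and by left arm, centre and right arm of each; bars are 95% exact binomial intervals that treat peaks as independent, and the dashed line is the share over all peaks, 7.36%. The centre of X (10.7%) stands above both its arms, the left arm of V (12.4%) and the right arm of I (12.2%) are highest, and the left arm of II (1.86%) is lowest.

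Most runs lay far apart. The median distance between neighbouring runs of 5 or more was 394 kb, and 26 of 156 such distances were over 1 Mb. The longest were on chromosome IV, 2.10 Mb from 8235629 to 10339733 and another of 2.10 Mb from 1659451 to 3762868. Of 102 blocks of 1 Mb, the incomplete last ones included, 24 held no run. The block from 6 to 7 Mb on chromosome V held the most, 8 runs with 48 of its 153 peaks, of which 10 were strong. Of the 156 pairs of neighbouring runs, 5 lay within 10 kb of each other. Whether these distances differ from those of randomly placed runs was not tested. The largest pair was on X, where runs of 9 and 7 peaks were 4512 bp apart and together took up 21.2 kb from 12167662 to 12188909. Both pairs on V were runs of 5 peaks each, 1677 bp apart at 6221422 to 6230840 and 1881 bp apart at 10466524 to 10478359. The other pairs were runs of 7 and 5 peaks on I, 4758 bp apart, and of 5 and 6 peaks on X, 6854 bp apart.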

How the data were processed

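Per the labels, 2 ChIP and 2 input libraries were made from crosslinked, sonicated embryo chromatin. The deposited data are 1 list of combined peaks, called with PeakSeq on WormBase WS180 per the file headers and the source column. The aligner, the versions, the filters on reads and how ChIP was scaled to input are not stated in the material used here. For each peak the authors deposited its first and last base and a q-value, at most 0.00994. There were 0 overlaps, gaps were at least 200 bp, and the list holds no read counts, so depth is unknown.

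A midpoint is start plus end, divided by 2 and rounded down. Span runs from first to last base of a run, and covered share is the sum of peak widths over it. Medians have order-statistic and shares exact binomial (Clopper-Pearson) 95% intervals, for counting error only. Each chromosome was measured from base 1 to its last peak. Python 3.11.15 was used, with pandas 2.3.3, numpy 2.4.6, scipy 1.17.1 and matplotlib 3.10.9, and the code was tested on simulated lists.

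The members, lists and limits were chosen with earlier results of these data known. Width and q come from the same contrast as the positions, so no test was run. Runs are named by most peaks per chromosome, 10 or more peaks, the 3 longest spans, the 3 highest and 3 lowest covered shares and the 5 strongest peaks; surrounding peaks, close pairs, long distances and the densest block were singled out after their values were seen. Genes and sequences were not used, since the gene table at hand is on WBcel235. Alternatives changed the joining distance, the fewest peaks, the kind of distance, the limit on q and the narrowest width.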

Additional observations from a re-analysis of the deposited data

How the results depend on the processing

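Peaks in runs were wider and more often strong than the others in 7 of 7 alternatives, in value. Settings are each compared with 963 peaks in 162 runs. Midpoints at most 1000 bp apart left 60 peaks in 11 runs, with a median width of 356 bp, a median spacing of 762 bp, 51.6% covered, 0% on X (0 of 60 peaks) and 41.7% of autosomal peaks in centres. At most 3000 bp apart, there were 2226 peaks in 349 runs, with a spacing of 1322 bp and 29.9% covered. With 4 or more peaks there were 1815 in 375 runs, 21.8% of them on V, and with 6 or more 538 in 77 runs, with 22.7% on V and 43.1% in centres. Joining by gaps of at most 2000 bp gave 1434 peaks in 229 runs, a width of 338.5 bp and a spacing of 1214 bp. With a q of 0.001 or less, 254 peaks lay in 44 runs, with a width of 411.5 bp, a spacing of 1171 bp, 47.5% covered, 45.7% strong, 25.6% on X, 46.6% in centres and 11.02% on V. Without peaks under 50 bp there were 732 peaks in 122 runs, with a width of 348.5 bp, 40.9% covered, 29.8% strong and 21.04% on X. Spacing, covered share and the number of runs follow from the limits by construction; for the shares on X, on V and in centres the cause was not tested. V held more of the run peaks than of the others in 6 of 7 alternatives, chosen after seeing the data, and X in 3 of 7. Autosomal centres did in 7 of 7, by small amounts in some. All alternatives draw on the same peak list, so such counts are not independent. No paired analysis was possible because the deposited peaks hold no separate values for replicates 1 and 2, which is also why neither replicate was left out in turn. Unknown depth and the limit on q of the list restrict what weak peaks can show.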
